A study of Arabidopsis thaliana with 6 samples.

Results

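The age pathway of flowering was followed through 10 genes chosen by name, the SQUAMOSA PROMOTER BINDING PROTEIN-LIKE genes *SPL3* (AT2G33810), *SPL4* (AT1G53160), *SPL5* (AT3G15270), *SPL9* (AT2G42200) and *SPL15* (AT3G57920) and the APETALA2-like genes *TOE1* (AT2G28550), *TOE2* (AT5G60120), *SMZ* (AT3G54990), *SNZ* (AT2G39250) and *AP2* (AT4G36920), out of 28775 genes in the count table. Of these 10, 8 had enough counts to be tested between the genotypes, and *SPL3* and *SPL5* did not. The libraries came from *Arabidopsis thaliana* of the wild type Col, with 3 libraries, and from the early flowering mutant *brr2a*-2, labelled cao mutant, also with 3 libraries. The mutant line carries an amino acid substitution in BRR2a, an RNA helicase of the spliceosome. It was found after EMS mutagenesis of a line with a modified *MSI1* and was then backcrossed into Col, so that the mutant is represented by 1 line. All plants were untreated, were grown in short days to an age of 15 days and were harvested 1 h before dark. The labels name rosette leaves and the study's methods name seedlings, and the tissue is left as stated by each.

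In young plants, the microRNA miR156 and its relative miR157 keep the *SPL* transcripts and their translation low. As plants age, miR156 declines and the SPL proteins accumulate, which promotes the change to the adult phase and flowering through genes such as *SOC1* and through *MIR172* genes. miR172 in turn acts on the AP2-like genes, which encode transcription factors that repress flowering.

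The binding sites are shown because they define the 2 branches of the pathway to which the 10 genes belong. The mature microRNAs, 5′ to 3′, have the seed (bases 2 to 8) in capitals and were read from the RefSeq annotation of TAIR10.1.
miR156a-5p: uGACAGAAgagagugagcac
miR157a-5p: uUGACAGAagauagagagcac
miR172a: aGAAUCUUgaugaugcugcau
miR157a has 1 more base at its 5′ end than miR156a, so that its seed covers the same run of bases shifted by 1, whereas miR172a has a different seed. In the sites, written 5′ to 3′ on the transcript, the bases opposite the seed are in capitals. *SPL3*, *SPL4* and *SPL5* carry their site in the 3′ UTR, and *SPL9* and *SPL15* carry an identical one in the coding sequence.
*SPL3* site: uugcuuacucucUUCUGUCa
*SPL4* site: cugcucucucucUUCUGUCa
*SPL5* site: ccgcucucucucUUCUGUCa
*SPL9* and *SPL15* site: gugcucucucucUUCUGUCa
*TOE1* site: cagcagcaucaucAGGAUUCu
*TOE2* site: augcagcaucaucAGGAUUCu
*AP2* site: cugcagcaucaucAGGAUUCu
*SMZ* site: uugcagcaucaucAGGAUUCc
*SNZ* site: uuguagcaucaucAGGAUUCc
All 5 *SPL* sites paired with every base of the miR156a seed. Outside the seed, *SPL9* and *SPL15* had 1 position that was not a Watson-Crick pair, *SPL3* and *SPL4* had 2, and *SPL5* had 3. The same 20-base coding site was found in *SPL2*, *SPL6*, *SPL10*, *SPL11*, *SPL13A* and *SPL13B*. The best match in the remaining 6 *SPL* genes had at least 6 such positions. Among 31346 genes with an annotated mRNA, 13 (0.0415%) had a stretch with at most 3 such positions against miR156a. The 5 AP2-like sites were all in coding sequence and shared a G:U pair opposite the seed of miR172a. *TOE2* had 1 position outside Watson-Crick pairing, *AP2* had 2, *TOE1* and *SMZ* had 3 and *SNZ* had 4, and 38 genes (0.121%) matched miR172a with at most 4.

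On TAIR10.1, these sites lie at chr2:14305878-14305897 in *SPL3*, chr1:19807090-19807109 in *SPL4* and chr2:17589066-17589085 in *SPL9*, all on the plus strand, and at chr3:5140598-5140617 in *SPL5* and chr3:21444834-21444853 in *SPL15* on the minus strand. The miR172 sites lie at chr5:24210889-24210909 in *TOE2* and chr4:17403019-17403039 in *AP2* on the plus strand, and at chr2:12226233-12226253 in *TOE1*, chr3:20373774-20373794 in *SMZ* and chr2:16389066-16389086 in *SNZ* on the minus strand.

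The libraries held between 18692830 and 29830638 gene counts. No 2 libraries of a genotype agreed within sampling noise, with a chi-square of between 22.8 and 91.1 per gene. Library 1 of Col stood apart from the others, with 2.26 CPM (counts per 1000000 counts of a library) of the root hair gene *COBL9* against 0.53 to 0.88 and 75.7 CPM of *SPL16* against 18.9 to 31.9 in the other 5 libraries. In the edgeR quasi-likelihood test across 19121 genes, 0 genes passed an adjusted p of 0.05 and a log2 fold change of 1 (0.0% called), whereas 2754 genes had an unadjusted p under 0.05. DESeq2 called 419 of 19914 genes (2.1%), and DESeq2 with 1 RUVg factor called 609 of 19975 (3.05%). The study describes a batch correction with RUVseq and 5000 control genes, without the number of factors. The single factor used here was computed separately, from the 5000 genes with the highest edgeR p. *FLC*, the flowering repressor whose reduction the study followed, had 3.08, 8.93 and 15.2 CPM in Col and 0.65, 0.19 and 0.78 in *brr2a*-2, without overlap. All 6 leaf markers were abundant, with summed levels of 4196 to 12080 CPM in Col and 9633 to 10001 in *brr2a*-2. All 9 root markers had counts, with sums of 36.6 to 46.0 CPM in Col and 48.1 to 54.9 in *brr2a*-2, although the root stem cell marker *WOX5* was at 0.05 to 0.33. For the shoot apex, all 7 markers had counts, with sums of 15.7 to 53.1 and 30.4 to 47.4 CPM, and *WUS* and *CLV3* did not exceed 0.06 CPM. Of 6 floral markers, *AP3* was at 0 in every library, and the sums were 1.36 to 4.42 and 2.81 to 3.71 CPM. The labels call the libraries biological replicates without saying what was kept separate, and p-values here measure the spread between them. In these bulk samples, fewer cells of a type and less RNA per cell cannot be told apart.

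The 5 AP2-like genes were detected at higher levels than the 5 *SPL* genes in both genotypes. To compare genes, CPM were divided by the exon length in kilobases of the RefSeq models (RPKM). In Col, *TOE1* had the highest level with a mean of 20.4 RPKM and a range of 15.6 to 25.7, followed by *SMZ* with 15.1, *TOE2* with 14.7, *AP2* with 7.95 and *SNZ* with 7.28. *SPL9* followed with 2.82 RPKM, *SPL4* with 0.78, *SPL15* with 0.42 and *SPL3* with 0.038, and *SPL5* had no count. *SPL3*, *SPL5*, *SPL15* and *SMZ* share exon bases with genes on the opposite strand, as given below, so that their levels are uncertain. The ranges of *TOE1*, *SMZ* and *TOE2* overlapped in this order, and so did those of *AP2* and *SNZ*. *TOE2* and *AP2*, *SNZ* and *SPL9*, *SPL9* and *SPL4*, and *SPL4* and *SPL15* did not overlap with each other. In *brr2a*-2, *TOE1* was again highest with 24.8 RPKM, and *SPL9* lay below every AP2-like gene with 3.55. *SPL15* with 0.58 and *SPL4* with 0.45 stood in the opposite order to Col, but their ranges overlapped.

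*SPL9*, which encodes a regulator of leaf initiation and phase change, was the best covered *SPL* member. It had 3.95, 5.86 and 5.22 CPM in the Col libraries and 4.29, 6.66 and 8.0 CPM in the *brr2a*-2 libraries. The highest 2 values came from *brr2a*-2, but library 1 of *brr2a*-2 lay below libraries 2 and 3 of Col. Its mean was 5.01 ± 0.97 CPM (SD, n = 3) in Col and 6.32 ± 1.88 in *brr2a*-2, and the log2 fold change was 0.34 with a 95% interval of -0.33 to 1.01 and an adjusted p of 0.623 (edgeR).

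*SPL15*, the close relative of *SPL9* that acts at the shoot apex in short days, was near the limit of detection. Its counts were 29, 15 and 5 in Col and 20, 16 and 15 in *brr2a*-2, or 0.88, 0.70 and 0.26 CPM against 0.92, 0.77 and 0.83 CPM. Library 3 of Col was low, and the genotypes overlapped. The log2 fold change of 0.43 had an interval of -0.69 to 1.54 (adjusted p = 0.712, edgeR). All exon bases of *SPL15* also belong to AT3G57910 on the opposite strand in the RefSeq models. Since the strand setting of the counting was not stated, reads of *SPL15* may have been dropped or credited to the other gene. Its low level is therefore uncertain.

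*SPL4*, one of the small SPL genes that promote floral meristem identity, had the largest fold change among the 8 tested genes. Its counts were 47, 19 and 17 in Col against 10, 9 and 17 in *brr2a*-2, which were 1.42, 0.88 and 0.90 CPM against 0.46, 0.43 and 0.94 CPM. Libraries 1 and 2 of *brr2a*-2 lay below all of Col, and library 3 lay between the Col values. With a log2 fold change of -0.82 and an interval of -1.87 to 0.24, the difference did not pass the test (adjusted p = 0.448, edgeR).

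*SPL3* and *SPL5*, the other small *SPL* genes with a site in the 3′ UTR, could not be compared. *SPL3* counts were 2, 0 and 1 in Col and 0 in each *brr2a*-2 library, and *SPL5* had 0 counts in all 6 libraries. Of the *SPL3* exon bases, 97.3% also belong to AT2G33815, a lncRNA annotated on the opposite strand that was itself at 0 in every library. In contrast, the 91-bp intron of *SPL3* (chr2:14305641-14305731, TAIR10.1) had 28, 1 and 17 reads in Col and 27, 6 and 19 reads in *brr2a*-2. AT2G33815 (chr2:14305008-14306053) also spans this intron, so that these reads may come from either gene. Thus the locus gave reads in every library while its gene count stood at or near 0, and the gene count of *SPL3* is uncertain. For *SPL5*, 25.5% of exon bases belong to AT3G15260 on the opposite strand.

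**Figure D1:**
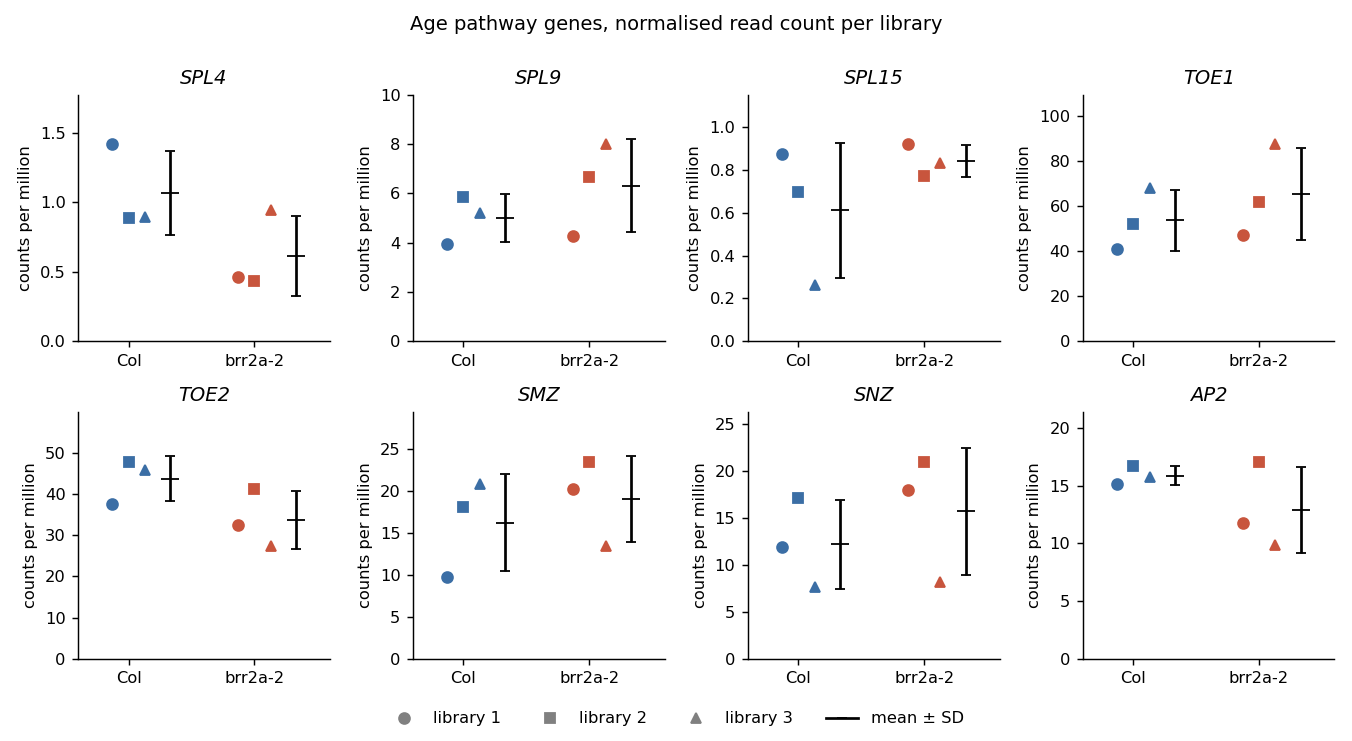
Normalised read counts (CPM, linear axes from 0) of the 8 tested age pathway genes in each of the 3 Col and 3 *brr2a*-2 libraries. Symbols mark the library number, and bars give the mean and SD of each genotype. The genotypes overlap in all 8 panels, and *SNZ* is lowest in library 3 of both genotypes.

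Among the AP2-like genes, *TOE1*, which represses flowering together with *TOE2*, had the most reads. It had 41.0, 52.1 and 67.7 CPM in Col and 47.1, 61.7 and 87.4 CPM in *brr2a*-2. The highest value was from *brr2a*-2 library 3, yet library 1 of *brr2a*-2 lay below libraries 2 and 3 of Col. The log2 fold change was 0.29 (interval -0.38 to 0.95, adjusted p = 0.673, edgeR).

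*TOE2* had 37.5, 47.9 and 45.8 CPM in Col and 32.5, 41.2 and 27.5 CPM in *brr2a*-2. Libraries 1 and 3 of *brr2a*-2 were below every Col library, and library 2 was above Col library 1. The means were 43.7 ± 5.5 CPM (SD, n = 3) and 33.7 ± 7.0 CPM, and the log2 fold change of -0.37 had an interval of -0.85 to 0.10, with an adjusted p of 0.440 in edgeR, the lowest among the 8 genes.

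*AP2*, known for floral organ identity as well as for delaying flowering, was even in Col and spread widely in *brr2a*-2. It had 15.1, 16.7 and 15.8 CPM in Col and 11.8, 17.1 and 9.84 CPM in *brr2a*-2. The *brr2a*-2 libraries included both the highest and the lowest values. Its log2 fold change was -0.30 (interval -0.83 to 0.24, adjusted p = 0.582, edgeR).

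*SMZ* and *SNZ* encode closely related repressors that act with the TOE proteins. *SMZ* had 9.72, 18.1 and 20.8 CPM in Col and 20.2, 23.5 and 13.5 CPM in *brr2a*-2. *SNZ* had 11.9, 17.1 and 7.59 CPM in Col and 17.9, 21.0 and 8.12 CPM in *brr2a*-2. Both genes overlapped between the genotypes, and *SNZ* was lowest in library 3 of either genotype. The log2 fold changes were 0.24 for *SMZ* (interval -0.53 to 1.01, adjusted p = 0.767) and 0.36 for *SNZ* (interval -0.60 to 1.33, adjusted p = 0.718) in edgeR. Without Col library 1, the *SMZ* value was -0.027, so that its direction rested on that library. *SMZ* shares 30.6% of its exon bases with AT3G54980 on the opposite strand.

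Over the 8 tested genes, 5 had a positive and 3 a negative log2 fold change for *brr2a*-2 against Col, and the median was 0.26 beside -0.04 over all genes tested. None was called by edgeR, where 0 had an unadjusted p under 0.05, compared with 14.4% of all genes. DESeq2 with and without the RUVg factor, which also fitted *SPL3*, likewise gave 0 calls and 0 genes at an unadjusted p under 0.05. Of the 8 tested genes, 0 were without overlap between the genotypes, beside 21.0% of all tested genes. *SPL3* and *SPL5*, at or near 0 counts, could not be compared in this way. Whether the members differ from all genes in this was not tested. For *SPL9*, *SPL15*, *SMZ*, *SNZ* and *TOE1*, the intervals reach upward to log2 values of 0.95 or more. For *SPL4*, *TOE2* and *AP2*, they reach downward to -1.87, -0.85 and -0.83. These libraries cannot separate such differences, in either direction, from none. Without library 1 of Col, *SPL4* stood at -0.55, *SPL9* at 0.19, *SPL15* at 0.79, *TOE1* at 0.12 and *TOE2* at -0.47, again without a call.

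Of the 6 other *SPL* genes with the same coding miR156 site, 4 could be tested, and these had higher values in each *brr2a*-2 library than in any Col library, but none passed the adjusted threshold. They were *SPL2*, *SPL6*, *SPL10* and *SPL11*. *SPL13A* and *SPL13B*, which are near-identical copies, had too few counts. How reads that match both copies were counted is not stated, so that their levels are uncertain. *SPL13A* counts were 17, 1 and 2 in Col and 1, 2 and 2 in *brr2a*-2, and *SPL13B* had 0 in every library. For comparison, 10.8% of all tested genes were higher without overlap. *SPL10* and *SPL11* are neighbours on opposite strands of chromosome 1, and with *SPL2* they promote adult leaf traits.

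*SPL11* had 4.10, 4.65 and 7.06 CPM in Col and 11.8, 8.34 and 8.28 CPM in *brr2a*-2. *SPL6*, known for a role in immunity, had 3.35, 2.84 and 3.06 CPM in Col and 5.54, 4.73 and 4.22 CPM in *brr2a*-2. In both genes, the gap between the nearest libraries of the genotypes was smaller than the range within *brr2a*-2. *SPL10* had 7.46, 11.2 and 11.9 CPM against 17.8, 15.2 and 12.95 CPM. *SPL2* had 16.3, 14.5 and 22.9 CPM against 25.7, 24.7 and 29.7 CPM. In both, library 3 of Col came closest to *brr2a*-2. The log2 fold changes were 0.85 for *SPL11*, 0.65 for *SPL6*, 0.59 for *SPL10* and 0.58 for *SPL2*, with unadjusted p of 0.0158, 0.0184, 0.037 and 0.0294 and adjusted p of between 0.259 and 0.322 (edgeR). An unadjusted p under 0.05 with a higher value in *brr2a*-2 was found for 6.93% of all genes. The direction was the same in DESeq2, where all 4 again had an unadjusted p under 0.05, and the lowest adjusted p was 0.0695, reached with the RUVg factor. Without library 1 of Col, their log2 fold changes were 0.70, 0.71, 0.41 and 0.51 in the same order.

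Together, 6 of the 7 tested *SPL* genes with a miR156 site were higher and *SPL4* was lower, and the median of their log2 fold changes was 0.58. The sum over the 11 *SPL* genes with the site was 38.1, 40.7 and 51.5 CPM in Col and 66.6, 60.9 and 65.1 CPM in *brr2a*-2. The summed root markers given above were also higher in *brr2a*-2 without overlap, although 4 of the 9 had a higher and 5 a lower mean there. *CASP1*, with 3.67 to 7.17 CPM in Col and 7.43 to 10.7 in *brr2a*-2, and *CASP2* were higher without overlap. Over all tested genes, 10.8% were higher without overlap. Of the 6 leaf markers, 5 had a higher mean in *brr2a*-2, and *LHCB2.1* (196 to 566 against 718 to 803 CPM) and *RCA* (1091 to 2193 against 2543 to 3611 CPM) did not overlap. The part of either marker list in this result was not tested. The 6 *SPL* genes without the site had 3 higher and 3 lower values and a median of -0.02. Among them, *SPL8*, which acts in anther development, had higher values without overlap, with 0.48, 0.47 and 0.69 CPM in Col and 0.83, 1.01 and 0.83 CPM in *brr2a*-2 (log2 fold change 0.72, adjusted p = 0.408). Whether the *SPL* genes with the site differ from those without it was not tested. The remaining AP2-like gene, *TOE3*, had a log2 fold change of 0.30 (adjusted p = 0.624), and the 6 AP2-like genes had a median of 0.26, with 0 at an unadjusted p under 0.05.

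**Figure D2:**
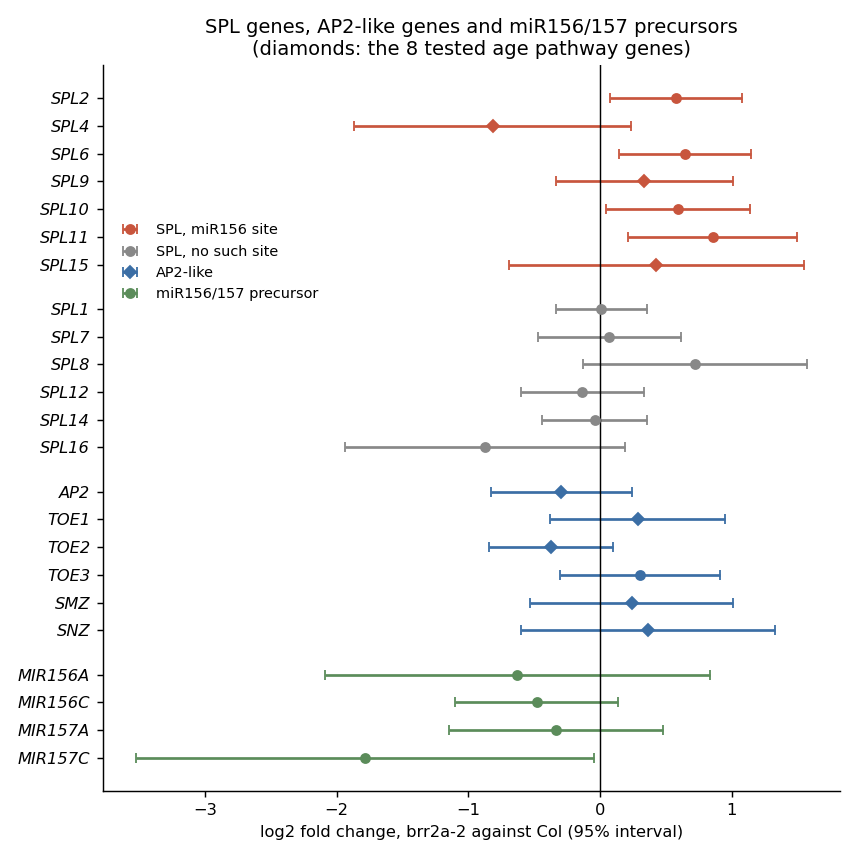
Log2 fold change of *brr2a*-2 against Col with its 95% interval for the tested *SPL* genes, AP2-like genes and miR156 and miR157 precursor loci, with diamonds for the 8 age pathway genes. The intervals of *SPL2*, *SPL6*, *SPL10* and *SPL11* lie above 0 and that of *MIR157C* lies below 0 before adjustment for the 19121 genes, and all 8 diamonds have intervals across 0.

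The precursor loci of miR156 and miR157 had few reads, and these report the primary transcript at the hairpin, not the mature microRNA. Of 12 loci, 6 had no count and 4 were tested, and all 4 had negative log2 fold changes with a median of -0.56. Of these, only *MIR157C* had an unadjusted p under 0.05 in edgeR, as did 7.47% of all genes in this direction. *MIR156C*, the best covered locus, had 9.45, 7.12 and 11.2 CPM in Col and 7.29, 4.78 and 7.78 CPM in *brr2a*-2. Only library 2 of *brr2a*-2 lay below all of Col. The log2 fold change was -0.48 (interval -1.10 to 0.13, adjusted p = 0.444, edgeR).

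*MIR157C* counts were 18, 36 and 82 in Col and 9, 14 and 14 in *brr2a*-2, or 0.54, 1.67 and 4.32 CPM against 0.42, 0.68 and 0.78 CPM. The range within Col exceeded the difference between the genotype means, and library 1 of Col lay within the range of *brr2a*-2. Its log2 fold change of -1.79 (interval -3.52 to -0.05) had an unadjusted p of 0.0454 and an adjusted p of 0.334, and was -0.80 when library 3 of Col was left out. *MIR156A* had 19, 8 and 34 counts against 13, 13 and 9, and *MIR157A* had 36, 28 and 34 counts against 25, 18 and 23. Both overlapped between the genotypes in CPM, and *MIR157A* had a log2 fold change of -0.33 (adjusted p = 0.689). *MIR156A* had -0.63 (adjusted p = 0.673), which turned to 0.28 without Col library 3. *MIR157B* had 2, 3 and 1 counts against 0, 3 and 2.

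The hairpins of *MIR156B*, *MIR156D* and *MIR156F*, all at 0 counts, lie within longer genes on the same strand. All bases of *MIR156B* and *MIR156F* are also exon of the surrounding gene. Reads there may have been dropped or credited to that gene, so that these counts of 0 do not show that the hairpins were silent. AT4G30975, the non-coding gene around *MIR156B*, which was picked after its values were seen, had 2.38, 1.58 and 2.37 CPM in Col and 0.88, 1.06 and 1.06 CPM in *brr2a*-2. It was lower in each *brr2a*-2 library than in any Col library, as were 10.2% of all tested genes, and its log2 fold change was -1.08 (adjusted p = 0.233, edgeR). AT5G10946 around *MIR156D* had -0.49 (adjusted p = 0.614), and AT5G26146 around *MIR156F* had 0.41 (adjusted p = 0.826). Thus the 3 surrounding genes did not share a direction.

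Of the 5 *MIR172* loci, 2 had no count and 0 could be tested. *MIR172A* counts were 14, 2 and 3 in Col and 7, 1 and 6 in *brr2a*-2. *MIR172E* counts were 1, 1 and 0 in Col and 4, 1 and 3 in *brr2a*-2, which did not overlap in CPM but rests on 10 counts in all. No difference in the *MIR172* precursors was detectable at this depth.

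**Figure D3:**
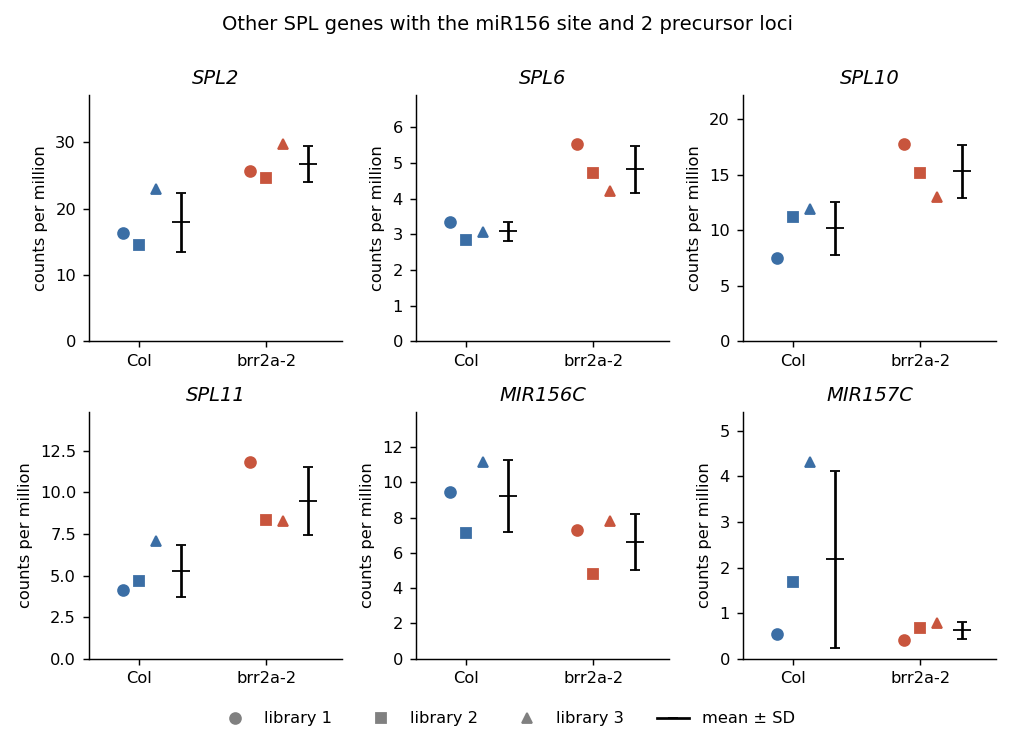
Normalised read counts (CPM, linear axes from 0) of *SPL2*, *SPL6*, *SPL10* and *SPL11* and of the precursor loci *MIR156C* and *MIR157C* in each library, with the mean and SD of each genotype. The 3 *brr2a*-2 libraries lie above all Col libraries for the 4 *SPL* genes, while the genotypes overlap for both precursor loci.

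Of 6 genes that act downstream of the SPL proteins, *SOC1*, a promoter of flowering that is also repressed by FLC, was the only one with enough counts. It had 16.3, 9.54 and 7.06 CPM in Col and 48.5, 35.5 and 24.0 CPM in *brr2a*-2. The lowest *brr2a*-2 value was above the highest Col value, with a log2 fold change of 1.71 (interval 0.82 to 2.6). The adjusted p was 0.184 in edgeR and 0.00138 in DESeq2, which called it. *AGL42*, a relative of *SOC1*, gave counts of 42, 5 and 2 in Col and 1, 1 and 0 in *brr2a*-2. Most of the *AGL42* counts came from Col library 1. *FUL*, *AP1*, *LFY* and *FT* had at most 16 counts in any library.

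The genes that make and load microRNAs gave 0 calls in edgeR and DESeq2. Of these, 1 had an unadjusted p under 0.05 in edgeR, beside 14.4% of all genes. Of 11 such genes, 7 were higher and 4 were lower, with a median log2 fold change of 0.08 and a range of -0.21 to 0.43. *CBP80*, a subunit of the nuclear cap-binding complex that takes part in microRNA processing and splicing, had 33.6, 35.7 and 28.8 CPM in Col and 45.8, 46.9 and 40.0 CPM in *brr2a*-2. It did not overlap, and its log2 fold change was 0.43 (unadjusted p = 0.0279, adjusted p = 0.296, edgeR). *TGH*, which assists the Dicer complex, was also higher without overlap, with a log2 fold change of 0.24 (adjusted p = 0.490). Thus 2 of the 11 genes were higher without overlap, beside 10.8% of all tested genes. The Dicer gene *DCL1* had -0.18 (adjusted p = 0.669).

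Because BRR2a is a spliceosomal helicase, reads in introns of the members were examined next. The table held 35 introns of *SPL3*, *SPL4*, *SPL9*, *TOE1*, *TOE2*, *SNZ* and *AP2*. Those of *SPL5*, *SPL15* and *SMZ* were left out, as intron names on chromosome 3 did not follow their genes. Intron positions were assigned by taking the numbers in the names to run along the chromosome. In 4184 minus-strand genes, read counts correlated with intron length by a mean of 0.37 in this order and -0.04 in transcript order. The intron numbers and positions given for *TOE1* and *SNZ*, on the minus strand, rest on this order. By the exon lengths of the RefSeq models, part of the intron bases of *TOE1*, *TOE2* and *SNZ* is exon in other isoforms. These lengths do not show this for *SPL9* or *AP2*. Reads there may enter both the intron and the gene count, and their part in the values below was not tested. Over the whole table, the libraries held 3.57, 2.76 and 2.88 intron reads per 100 gene reads in Col and 4.50, 4.25 and 3.96 in *brr2a*-2. Thus the whole table was higher in *brr2a*-2 by a ratio of 1.38, and members were read against this shift. Organelle genes held 40.7% to 47.1% of the gene counts of a library and are included in the whole table.

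The 4 AP2-like genes with usable introns all had more intron reads per gene read in each *brr2a*-2 library than in any Col library, as did 44.8% of 9317 genes with at least 60 intron reads. *TOE1* had 10.4, 7.58 and 8.02 intron reads per 100 gene reads in Col and 15.3, 14.9 and 14.0 in *brr2a*-2, a ratio of 1.70. *TOE2* had 10.6, 10.2 and 13.2 in Col and 19.1, 15.4 and 19.2 in *brr2a*-2, a ratio of 1.58. In both genes, the genotypes were apart in this measure although their gene levels overlapped. *SNZ* had 15.4, 21.8 and 12.5 in Col and 29.0, 30.6 and 23.3 in *brr2a*-2, a ratio of 1.67. *AP2* had 7.0, 8.91 and 7.69 in Col and 14.5, 13.3 and 17.5 in *brr2a*-2, a ratio of 1.92. For each of the 4 genes, the exact two-sided permutation test gave p = 0.1, the smallest that 3 against 3 libraries allow.

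*SPL9*, in contrast, overlapped. It had 16.8, 21.4 and 19.2 intron reads per 100 gene reads in Col and 20.4, 23.9 and 20.1 in *brr2a*-2, a ratio of 1.12 (exact permutation p = 0.4). *SPL4* had 12 intron reads in all and gave no usable value. That *SPL9* differs from the AP2-like genes in this respect was not tested.

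Across the 9317 genes, 0.408% were lower in *brr2a*-2 without overlap, with a median ratio of 1.42 and quartiles of 1.19 and 1.70. Of the 5 members in this set, 4 were higher without overlap, and their median ratio was 1.67. *TOE1*, *TOE2* and *SNZ* lay between the median and the upper quartile of all genes, and *AP2* lay above that quartile. When the value of each library was divided by that of the whole table, a comparison chosen after seeing the data, *TOE1* alone among the members remained without overlap, with 2.91, 2.75 and 2.78 times the whole table in Col and 3.40, 3.51 and 3.54 times in *brr2a*-2, as did 10.8% of the 9317 genes. The size of these multiples depends on the organelle gene counts within the whole table. The ratios of *brr2a*-2 over Col were then 1.24 for *TOE1*, 1.37 for *AP2*, 1.18 for *SNZ*, 1.13 for *TOE2* and 0.80 for *SPL9*. The median over all genes was 1.03. In intron CPM, which are scaled by the intron table and leave out the reads of the gene, 0 of the members were without overlap.

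**Figure D4:**
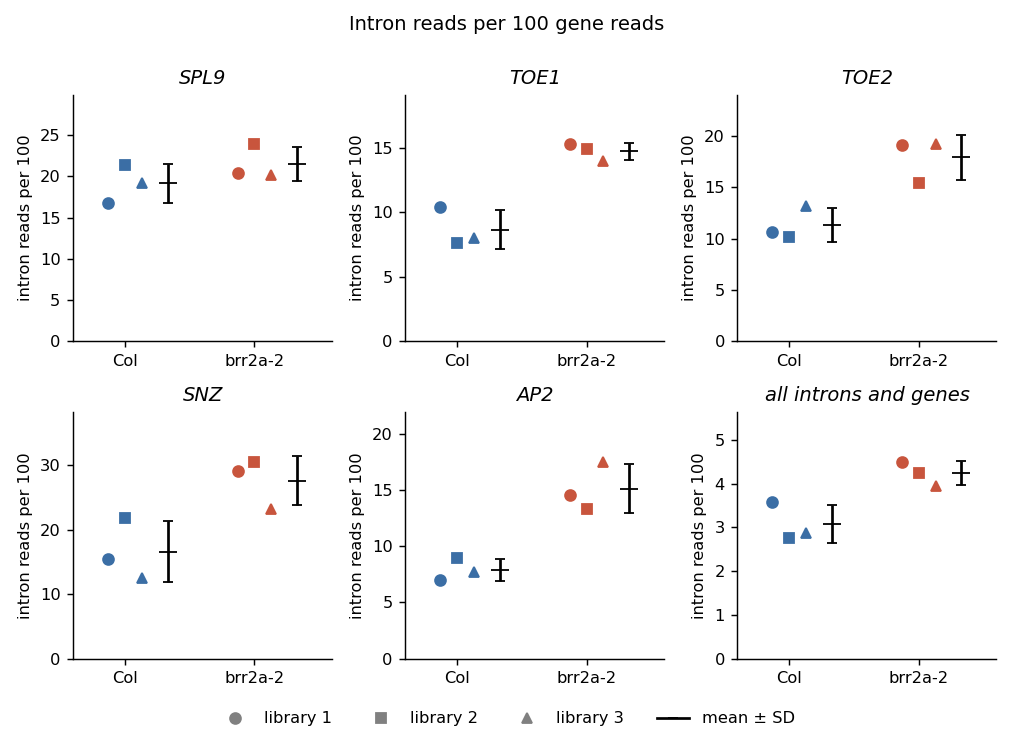
Intron reads per 100 gene reads (linear axes from 0) in each library for *SPL9*, *TOE1*, *TOE2*, *SNZ* and *AP2*, summed over the introns of each gene, and for all introns over all genes, with the mean and SD of each genotype. The genotypes are apart in *TOE1*, *TOE2*, *SNZ*, *AP2* and the whole table, and overlap in *SPL9*.

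Single introns were then compared. Of 31 member introns with at least 10 reads, 9 were higher in *brr2a*-2 without overlap per 100 gene reads and 0 were lower, while 21.8% of such introns in the table were higher without overlap. Of these 9 introns, 4 lay in *TOE1*, 3 in *AP2*, and 1 each in *TOE2* and *SNZ*. *TOE1* intron 7 (72 bp, chr2:12226384-12226455 on TAIR10.1) had 18, 17 and 15 reads in Col and 31, 56 and 39 in *brr2a*-2, which was 1.33, 1.52 and 1.17 per 100 gene reads against 3.04, 4.38 and 2.48. *TOE1* intron 2 (68 bp, chr2:12227551-12227618) had 1.55, 1.16 and 1.32 against 3.24, 2.42 and 3.12. *TOE1* introns 3 and 6 were also without overlap, whereas introns 1, 4 and 5, the last of which is the longest with 258 bp, overlapped. *SNZ* intron 5 had 2.53, 4.63 and 3.47 per 100 gene reads in Col and 6.68, 9.20 and 6.85 in *brr2a*-2.

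**Figure D5:**
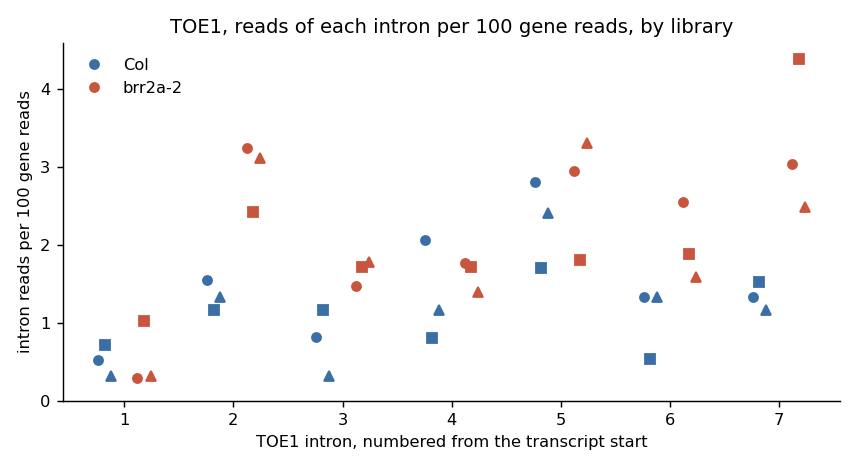
Reads of each of the 7 introns of *TOE1* per 100 gene reads in Col (blue) and *brr2a*-2 (red), where circles, squares and triangles are libraries 1, 2 and 3 and introns are numbered from the transcript start. Introns 2, 3, 6 and 7 have all *brr2a*-2 libraries above all Col libraries, and introns 1, 4 and 5 overlap.

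In the edgeR fit across 17214 introns, corrected for the change of each gene and scaled to the intron table, 47 introns were called (0.273%). Without chromosome 3, where intron names did not follow their genes, 1 of 13811 was called (0.00724%), and 0 to 81 were called when a library was left out. Of 19 member introns tested, 0 were called and 0 had an unadjusted p under 0.05, beside 12.6% of all introns tested. DESeq2 on all 35 likewise gave 0 and 0, although many of these introns had few reads. *TOE1* intron 7 had the lowest adjusted p of 0.528, with a log2 fold change beyond that of the gene of 0.67 (interval -0.21 to 1.54). Libraries were also scaled by the gene table, so that the shift of the whole intron table remained. Then 3 of 16 member introns had an unadjusted p under 0.05 and 0 were called. Over all introns, 24.5% had such a p with a higher value in *brr2a*-2, and 4.47% were called higher. These shares, like the 12.6%, include introns named for chromosome 3, where names did not follow their genes. The 3 member introns were *TOE1* intron 7 with a log2 fold change of 1.29 (adjusted p = 0.0769), intron 3 with 1.22 (adjusted p = 0.139) and intron 2 with 1.14 (adjusted p = 0.111). The *SPL3* intron had 0.38 beyond its gene (adjusted p = 0.845), a value that depends on a gene count near 0 and on reads that may belong to AT2G33815.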

How the data were processed

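The deposited tables hold raw counts per gene and per intron of the first isoform, which the authors made from rRNA-depleted paired-end libraries by trimming with Trimmomatic 0.32, aligning to TAIR10 with tophat and counting with HTSeq. The strand setting is not given in the sources used here. Replicates were not pooled.

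Low genes were dropped by filterByExpr with its minimum count set to 10, and the rest were scaled by TMM and tested with the quasi-likelihood F-test of edgeR 4.0.16 (R 4.3.3), with Benjamini-Hochberg adjustment over all genes. A call meant an adjusted p below 0.05 together with a log2 fold change of 1 or more in size. Introns were fitted alike, with the log2 fold change of the gene (prior count of 2) in the offset. Alternatives used DESeq2 1.42.0, 1 RUVg factor from 5000 genes, other scalings and filters, a replicate block and each library left out. On simulated counts, with a median change of 1.94 to 2.03 on the log2 scale, the gene test recovered 183 of 200 changed genes with 11 false calls among 19349, and the intron test 132 of 200 with 14 false calls among 17398 when noise was shared with the gene, but 153 of 200 with 404 false calls among 17977 when it was independent. In the simulation, the spread between libraries was set alike for all genes and was not estimated from these libraries. The recovered numbers therefore do not give the power of the real tests, and the 0 calls among genes do not show absence of change. Intervals are 95%, and CPM were scaled by TMM. Gene models, microRNAs and sites came from RefSeq TAIR10.1.

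The members, lists and tests were chosen with earlier results of these data known. All 10 members were named, and from each pathway list the genes with an unadjusted p under 0.05 or without overlap, as well as precursor loci with at least 10 counts. The marker genes, *SPL16*, *SPL13A*, *SPL13B*, *TOE3*, *DCL1*, *FUL*, *AP1*, *LFY*, *FT*, AT4G30975, AT5G10946 and AT5G26146 fall outside this rule and were named with their values known.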

Additional observations from a re-analysis of the deposited data

How the results depend on the processing

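The members stayed at 0 calls in every alternative and in every fit without 1 library, and 0 of them lost their overlap under other scalings. Over these settings, the log2 fold change of *SPL4* lay between -1.25 and -0.55, that of *TOE2* between -0.54 and -0.24 and that of *SPL9* between 0.13 and 0.55. With 1 library left out, *SMZ* ranged from -0.027 to 0.47 and AT5G10946 from -0.81 to 0.0036, both turning without Col replicate 1, and *MIR156A* ranged from -1.0 to 0.28, turning without Col replicate 3. Over all genes, 3 were called without the filter on low counts, 10 with 1 RUVg factor, 419 with DESeq2 and 609 with DESeq2 and the RUVg factor, and 0 to 2 when a library was left out. Among the pathway lists, DESeq2 called 1 gene, *SOC1*, with and without the factor. Introns called numbered 47, and 83 without the correction for the gene, 768 with the library sizes of the gene table, 324 without the filter, 1 without chromosome 3, 188 with DESeq2 and 0 to 81 when a library was left out. The *SPL3* intron had -0.14 without the correction. In intron CPM, which also leave out the division by the reads of the gene, 0 members had higher intron values without overlap, and the ratios of *brr2a*-2 over Col were 0.86 in *SPL4*, 0.97 in *SPL9*, 0.82 in *TOE2*, 1.47 in *TOE1*, 1.40 in *SNZ* and 1.04 in *AP2*. Divided by the whole table, an alternative chosen after seeing the data, the ratio to gene reads was without overlap in 1 member, *TOE1*, and turned to 0.80 in *SPL9*. Scaling by library totals alone moved the median log2 fold change of all genes from -0.04 to -0.11.

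Libraries with the same number correlated by 0.04, 0.23 and 0.42 in their deviations, and libraries with unlike numbers by -0.49 to 0.23. Whether the numbers mark a shared batch was not tested. With a replicate block, 0 genes and 0 members were called. The *MIR172* loci had too few counts to be tested, the gene count of *SPL3* is uncertain, and the cause of the differences between settings was not tested.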
